A study of Drosophila melanogaster with 8 samples.

Results

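The nuclear genes of oxidative phosphorylation were examined in enterocyte preparations from the adult midgut of Drosophila melanogaster. The rule for members was set with earlier results of these data known. Members were chosen by symbol, from the FlyBase gene identifiers of the deposited count table. They were the genes whose symbol begins with ND- (complex I), with UQCR- (complex III), with COX and a digit (complex IV) or with ATPsyn (complex V), together with SdhA, SdhB, SdhC and SdhD (complex II), Cyt-c1 and RFeSP (complex III) and Cyt-c-p (cytochrome c). This gave 65 of the 9177 genes in the table, of which 32 belonged to complex I, 4 to complex II, 8 to complex III, 1 was cytochrome c, 9 belonged to complex IV and 11 to complex V. All 65 passed the filter on low counts. A further 22 annotated genes whose symbols follow the same naming were not analysed here.

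The series set out to find the genes that Shavenbaby (Svb), the transcription factor that ovo encodes, controls in mature enterocytes. All flies were virgin females that carried MyoIA-Gal4 and UAS-GFP together with tubGal80TS, a temperature-sensitive repressor of Gal4. They were kept at room temperature for 3 days and at 29 °C for 6 days, and were 9 days old at dissection. SvbAct flies (n = 3 libraries) also carried UAS-SvbACT::GFP, a constitutive form of Svb fused to GFP. RNAiSvb flies (n = 3 libraries) carried the hairpin transgene UAS-SvbRNAi. Ctrl flies (n = 2 libraries) came from the driver line crossed to Canton-S and carried neither transgene. MyoIA-Gal4 is a driver for enterocytes, the absorptive cells of the gut, whereas the strain label names ISCs (intestinal stem cells) as the cells in which the transgenes were switched on. Each library came from the posterior midguts of a pooled batch of females, and the replicates of a group were prepared on separate days. The tissue was digested, and the patches of enterocytes that stayed on a cell strainer were used.

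Oxidative phosphorylation makes ATP at the inner mitochondrial membrane. Complex I takes electrons from NADH and complex II takes them from succinate. Both hand them to ubiquinone, from which complex III passes them through cytochrome c to complex IV and so to oxygen. Complexes I, III and IV pump protons, and complex V, the ATP synthase, makes ATP as the protons flow back. Most subunits are encoded in the nucleus and imported, a few subunits of complexes I, III, IV and V are encoded in mitochondrial DNA, and complex II is wholly nuclear. Enterocytes digest and take up nutrients, which depends on ATP-driven transport.

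Library totals ran from 15450011 to 23748649 counts. The targeted gene ovo had 868, 1189 and 762 counts in the SvbAct libraries, 40, 26 and 61 counts in the libraries labelled RNAiSvb, and 9 and 2 counts in Ctrl libraries. The SvbAct libraries stood far above both other groups. In the libraries labelled RNAiSvb ovo was not below Ctrl (log2 fold change 2.63, SE 0.63, edgeR adjusted p 0.0807). The ovo counts thus do not bear out the label, but Ctrl counts were so low that a fall could hardly be seen. Why the counts were higher was not tested, and these libraries are called by their label throughout. All 7 enterocyte markers were detected, and they took from 0.933% to 1.59% of a library's counts.

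Transcripts of most of the 65 members were abundant, a statement that does not extend to the 22 genes not analysed here. Levels were compared between genes as CPM (counts scaled to a common library size) per kb of exon, averaged over the 8 libraries. On this scale 48 of the 65 members lay in the top 10% of the genes tested, and the median member lay at percentile 93.1. The highest level was 939 CPM per kb for ATPsynC, the subunit of the c-ring that turns as protons pass. ATPsynbeta, the catalytic subunit of the ATP synthase head, followed with 685 CPM per kb. Cyt-c-p, the mobile electron carrier cytochrome c, came next with 477 CPM per kb. Within complex IV the highest levels were those of COX5A (402 CPM per kb) and COX7B (351 CPM per kb), and within complex III those of UQCR-C1, a core protein (312 CPM per kb), and Cyt-c1, the haem subunit that reduces cytochrome c (244 CPM per kb).

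The complexes differed in level. Median levels per complex were 89.5 CPM per kb for complex I, 121 CPM per kb for complex II, 177 CPM per kb for complex III, 260 CPM per kb for complex IV and 297 CPM per kb for complex V. Among the genes placed in complex I by symbol, the lowest was ND-13A (37.3 CPM per kb), an accessory subunit. The highest was ND-MLRQ (259 CPM per kb), whose place in complex I rests here on its symbol only. In complex II SdhA, the flavoprotein that oxidises succinate, had 145 CPM per kb and the membrane anchor SdhD had 96.3 CPM per kb. COX7CL, a duplicate of COX7C, was the lowest member with 2.73 CPM per kb and from 8 to 43 counts a library, so that its differences carry large errors. COX7C itself had 156 CPM per kb. Other low members for their complex were UQCR-11 (30.3 CPM per kb) and ATPsyndelta (48.7 CPM per kb).

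**Figure D1:**
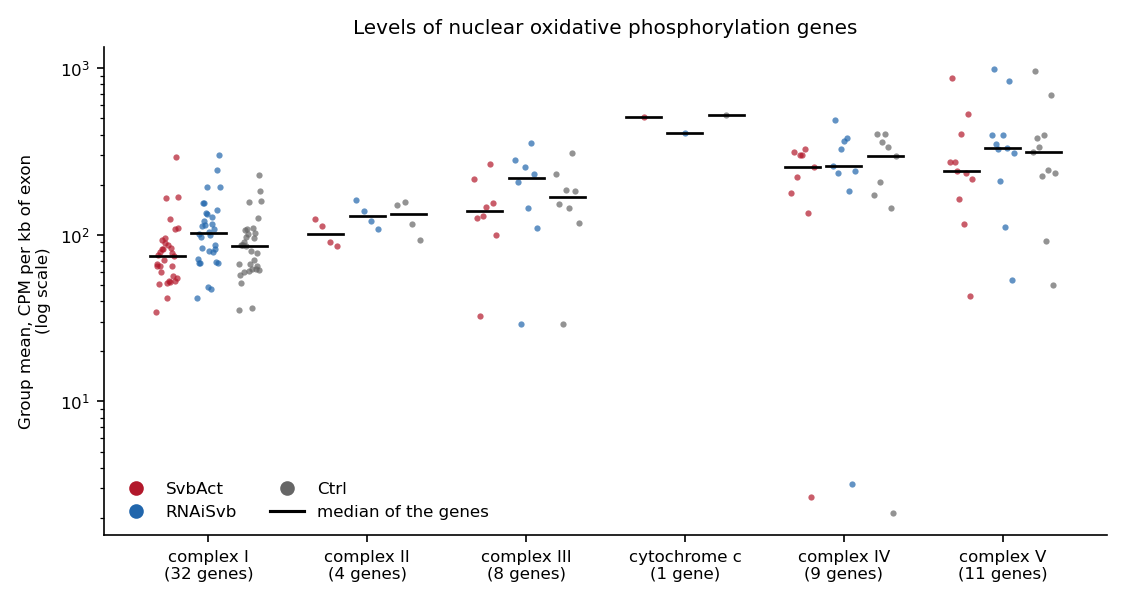
Level of each of the 65 nuclear genes as the group mean in CPM per kb of exon (log scale), by respiratory complex, with SvbAct, libraries labelled RNAiSvb and Ctrl side by side. Points are genes and black lines are the medians of the genes. The median for complex I is 75.1 CPM per kb in SvbAct, 103 CPM per kb in the libraries labelled RNAiSvb and 86.1 CPM per kb in Ctrl, and the points near the bottom are COX7CL.

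SvbAct libraries were compared with Ctrl libraries to ask what the constitutive form of Svb does to these genes. Most members had lower counts in SvbAct, by small amounts, and none passed the test. With edgeR's quasi-likelihood test, adjusted over 8775 genes, 0 of 65 members had an adjusted p under 0.05, whereas 3.44% of all genes tested did. DESeq2 also called 0 members, beside 7.30% of all genes. At an unadjusted p under 0.05 there were 9 members, or 13.8%, all lower in SvbAct, beside 7.81% of all genes that were lower and 9.55% that were higher at that level. In bulk samples, fewer cells of a type and less RNA per cell cannot be told apart.

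The median log2 fold change of the 65 members was -0.17 in SvbAct over Ctrl, with 14 members above 0 and 51 below, beside a median of -0.01 for all genes tested. It was -0.06 without Ctrl library 1 and -0.29 without Ctrl library 2. Medians per complex were -0.15 for complex I, -0.31 for complex II, -0.23 for complex III, -0.10 for complex IV and -0.20 for complex V, and the single value of Cyt-c-p was -0.05. Every SvbAct library lay below both Ctrl libraries for 17 members (26.2%), and for no member did every SvbAct library lie above Ctrl. Of all genes tested, 20.0% lay wholly below Ctrl and 18.7% wholly above. The 17 were 6 members of complex I, 2 of complex II, 1 of complex III, 3 of complex IV and 5 of complex V.

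ND-SGDH, an accessory subunit in the membrane arm of complex I, had 102, 94.5 and 94.1 CPM in SvbAct, against 149 and 133 CPM in Ctrl. All SvbAct values were below both Ctrl values, and its log2 fold change of -0.54 (SE 0.18) was the most negative of the members, with an edgeR adjusted p of 0.16. SdhB, the iron-sulfur subunit of complex II, had 168, 97.9 and 147 CPM in SvbAct, against 207 and 179 CPM in Ctrl. The groups did not overlap, but SvbAct library 2 lay far below the other two, and the edgeR adjusted p was 0.272 (log2 fold change -0.49, SE 0.21). ATPsynCF6, a peripheral stalk subunit of the ATP synthase, had 210, 193 and 179 CPM in SvbAct, against 281 and 258 CPM in Ctrl. Here too the groups were apart, with a log2 fold change of -0.48 (SE 0.17) and an edgeR adjusted p of 0.182. At the same end, ND-AGGG (-0.53, SE 0.36) and UQCR-14 (-0.52, SE 0.27), had larger errors.

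The members with the most positive values overlapped with Ctrl. ND-B14.5A, an accessory subunit of complex I, had 29.1, 67.3 and 29.3 CPM in SvbAct, against 31.9 and 26.8 CPM in Ctrl. Its log2 fold change of 0.51 (SE 0.35) was the most positive and rested on SvbAct library 2, since the other two SvbAct values lay between the Ctrl values. ATPsynG, a membrane subunit of the ATP synthase, was also highest in that library, with 64.8, 147 and 63.9 CPM in SvbAct and 71.3 and 73.5 CPM in Ctrl (log2 fold change 0.34, SE 0.34). ND-MLRQ (0.35, SE 0.30), COX7CL (0.33, SE 0.74) and ND-15 (0.23, SE 0.25) overlapped between the groups as well.

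The libraries labelled RNAiSvb were compared with the same 2 Ctrl libraries, so that this comparison and the previous one share their controls. Most members had higher counts in the libraries labelled RNAiSvb, again with none past the test. EdgeR called 0 of 65 members, beside 1.36% of all genes tested, and at an unadjusted p under 0.05 there were 6 members (9.23%), all higher, beside 6.58% of all genes that were higher and 7.00% that were lower at that level. DESeq2 called 1 member, beside 4.00% of all genes. It was ND-30, a core subunit in the ubiquinone-reducing part of complex I, with a log2 fold change of 0.78 and an adjusted p of 0.0347. The median log2 fold change of the members was 0.24, with 53 above 0 and 12 below, beside 0.02 for all genes tested. Medians per complex were 0.30 for complex I, 0.09 for complex II, 0.24 for complex III, 0.18 for complex IV and 0.10 for complex V, and Cyt-c-p stood at -0.36. Every library labelled RNAiSvb lay above both Ctrl libraries for 19 members (29.2%), beside 15.9% of all genes tested, and 14 of the 19 belonged to complex I. Only 1 member lay wholly below Ctrl, beside 17.0% of all genes.

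ND-30 had 132, 196 and 127 CPM in the libraries labelled RNAiSvb, against 96.7 and 80.3 CPM in Ctrl. All 3 were above Ctrl, library 2 by the most, and the edgeR adjusted p was 0.132 (log2 fold change 0.78, SE 0.21). ND-PDSW, an accessory subunit of the membrane arm of complex I, had 192, 300 and 175 CPM in the libraries labelled RNAiSvb and 151 and 118 CPM in Ctrl. The groups did not overlap, and library 2 again held the highest value (log2 fold change 0.72, SE 0.28, edgeR adjusted p 0.294). ND-B14, an accessory subunit next to the NADH-oxidising arm, had 58.9, 69.9 and 55.1 CPM in the libraries labelled RNAiSvb and 37.5 and 39.2 CPM in Ctrl, which were apart as well (log2 fold change 0.68, SE 0.22, edgeR adjusted p 0.208). COX4, a subunit of complex IV, followed with a log2 fold change of 0.58 (SE 0.28). COX7CL had the same log2 fold change with a SE of 0.73.

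At the other end was Cyt-c-p, with 377, 261 and 200 CPM in the libraries labelled RNAiSvb, against 357 and 361 CPM in Ctrl. Library 1 was above both Ctrl values and libraries 2 and 3 were below them, so the groups overlapped (log2 fold change -0.36, SE 0.28). SdhB was the only member with every library labelled RNAiSvb below both Ctrl libraries, at 178, 164 and 163 CPM in the libraries labelled RNAiSvb and 207 and 179 CPM in Ctrl, but its nearest values almost touched (log2 fold change -0.20, SE 0.21). ND-AGGG (-0.31, SE 0.37), COX8 (-0.29, SE 0.24) and COX6B (-0.14, SE 0.22) overlapped.

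**Figure D2:**
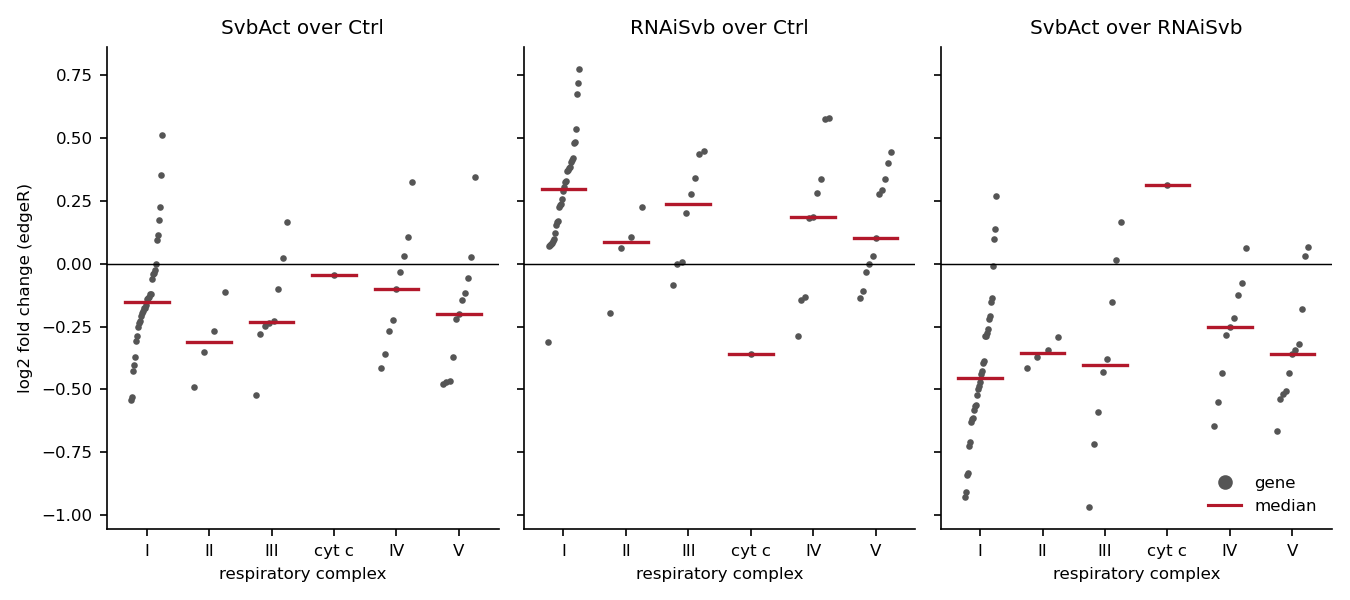
Log2 fold change (edgeR) of each of the 65 genes by respiratory complex in SvbAct over Ctrl, RNAiSvb over Ctrl and SvbAct over RNAiSvb. RNAiSvb is a label that ovo counts do not bear out. Points are genes and red lines are medians, which for complex I are -0.15, 0.30 and -0.45, and the first pair of panels share the same 2 Ctrl libraries.

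Most members had lower counts in SvbAct than in the libraries labelled RNAiSvb when these 2 sets of 3 libraries were compared directly. Of the 65 members, 10 fell in SvbAct relative to the libraries labelled RNAiSvb and none rose (edgeR adjusted p under 0.05). Of all genes tested, 6.26% passed in this comparison, of which 2.21% passed as lower in SvbAct and 4.05% as higher, whereas 15.4% of the members passed, all as lower. The 10 were 6 subunits of complex I (ND-30, ND-49, ND-ASHI, ND-B14, ND-B17 and ND-SGDH), RFeSP and UQCR-14 of complex III, COX5A of complex IV and ATPsynbeta of complex V. No member of complex II passed, and neither did cytochrome c. Their log2 fold changes lay between -0.97 and -0.62.

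At an unadjusted p under 0.05 there were 37 members (56.9%), all lower in SvbAct, beside 11.6% of all genes that were lower and 12.1% that were higher at that level. Every SvbAct library lay below every library labelled RNAiSvb for 34 members (52.3%), beside 14.9% of all genes tested, and no member lay wholly above, which 14.9% of all genes did. The median log2 fold change over the 65 members was -0.39, with 9 above 0 and 56 below, beside -0.02 for all genes tested. Taking each complex by itself, the median was -0.45 for complex I, -0.36 for complex II, -0.40 for complex III, -0.25 for complex IV and -0.36 for complex V. DESeq2 called 17 members, all lower, beside 12.0% of all genes in both directions.

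The count of 10 depended on single libraries. A fit of these groups alone, without Ctrl, called 5 members, beside 4.59% of all genes. Without SvbAct libraries 1, 2 and 3 the counts were 2, 3 and 2, beside 3.99%, 2.99% and 4.72% of all genes. Without libraries 1, 2 and 3 labelled RNAiSvb they were 5, 1 and 4, beside 5.67%, 3.07% and 3.80% of all genes, and 5 without Ctrl library 1 (4.38%) and 5 without Ctrl library 2 (4.30%). All calls in these fits were lower in SvbAct. Without SvbAct library 1, SvbAct library 3 or library 2 labelled RNAiSvb, the members' share called was below that of all genes (both directions). In the other fits the members' share was the larger. The median over the members moved less, from -0.45 without SvbAct library 2 to -0.34 without SvbAct library 3.

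Of complex I, 6 of 32 members passed (18.8%), and of complex III 2 of 8 (25.0%), beside 6.26% of all genes. The 7 nuclear core subunits of complex I, which carry the flavin and iron-sulfur clusters, were all lower in SvbAct than in the libraries labelled RNAiSvb. Their log2 fold changes ran from -0.91 to -0.48, with no overlap between the groups in any of them. Of all 65 members 52.3% lay wholly lower in SvbAct, and of all genes tested 14.9% did. Of the 7 core subunits, 2 (28.6%) passed the threshold. ND-30 (chromosome 3L, 3158485 to 3159578) had 75.6, 89.3 and 77.4 CPM in SvbAct, against 132, 196 and 127 CPM in the libraries labelled RNAiSvb, and 96.7 and 80.3 CPM in Ctrl. The SvbAct values lay around the lower Ctrl value and well below the libraries labelled RNAiSvb (log2 fold change -0.91, SE 0.19, edgeR adjusted p 0.0205). ND-49 (chromosome 4, 568296 to 571554), a core subunit at the site where ubiquinone is reduced, had 121, 82.8 and 132 CPM in SvbAct, against 182, 189 and 177 CPM in the libraries labelled RNAiSvb and 143 and 130 CPM in Ctrl. The libraries labelled RNAiSvb were close together and above the other two groups, which overlapped each other (log2 fold change -0.71, SE 0.18, edgeR adjusted p 0.0438).

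The remaining core subunits did not pass. In the ubiquinone-reducing module ND-20 had a log2 fold change of -0.58 (edgeR adjusted p 0.0589, SE 0.16) and ND-23 one of -0.52 (SE 0.17, edgeR adjusted p 0.0973). In the module that oxidises NADH the values were -0.56 for ND-75 (edgeR adjusted p 0.101), -0.50 for ND-51 (0.103) and -0.48 for ND-24 (0.0709). The ranges of the 2 modules overlapped.

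Accessory subunits of complex I surround the core and are needed for its assembly and stability. Among the 25 genes counted as such, 4 passed (16.0%) and the median was -0.39. Of all genes tested 6.26% passed in either direction and 2.21% as lower. ND-B14 (chromosome 2R, 10897144 to 10897885) had 38.7, 23.5 and 34.4 CPM in SvbAct, against 58.9, 69.9 and 55.1 CPM in the libraries labelled RNAiSvb and 37.5 and 39.2 CPM in Ctrl. SvbAct and Ctrl overlapped, and the libraries labelled RNAiSvb stood above both (log2 fold change -0.93, SE 0.20, edgeR adjusted p 0.0226). ND-SGDH (chromosome 3L, 12137496 to 12138584) had 165, 211 and 141 CPM in the libraries labelled RNAiSvb, beside the SvbAct and Ctrl values given above. Here SvbAct lay below both other groups, which overlapped each other (log2 fold change -0.83, SE 0.17, edgeR adjusted p 0.0188, the lowest of the members). 

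ND-B17 (chromosome 2L, 15749319 to 15751078), a membrane-arm subunit, had 54.8, 59.2 and 54.6 CPM in SvbAct, against 82.1, 90.3 and 86.1 CPM in the libraries labelled RNAiSvb and 67.9 and 55.5 CPM in Ctrl. The spread within both sets of 3 libraries was small, and SvbAct overlapped with Ctrl (log2 fold change -0.62, SE 0.14, edgeR adjusted p 0.0285). ND-ASHI (chromosome X, 6677262 to 6679118), also of the membrane arm, had 70.2, 69.7 and 74.6 CPM in SvbAct, against 108, 129 and 95.0 CPM in the libraries labelled RNAiSvb and 105 and 80.0 CPM in Ctrl. SvbAct was lowest throughout, and the call was close to the threshold (log2 fold change -0.63, SE 0.16, edgeR adjusted p 0.0483). Among the members just outside it, ND-PDSW had a log2 fold change of -0.84 (edgeR adjusted p 0.0726, SE 0.25), ND-39 one of -0.72 (edgeR adjusted p 0.0757) and ND-B14.7 one of -0.61 (edgeR adjusted p 0.0644).

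The genes counted as accessory subunits, ND-MLRQ among them by its symbol only, were not uniform. ND-MLRQ had 133, 219 and 122 CPM in SvbAct, against 169, 90.9 and 133 CPM in the libraries labelled RNAiSvb, and 109 and 138 CPM in Ctrl. The groups overlapped and the libraries numbered 2 held both extremes (log2 fold change 0.27, SE 0.27). ND-B14.5A (0.14, SE 0.30) and ND-B14.5B (0.10, SE 0.26) were the other two members of complex I with a value above 0. ND-15 stood at -0.01 (SE 0.23), with 77.0, 48.7 and 102 CPM in SvbAct and 73.4, 74.3 and 81.3 CPM in the libraries labelled RNAiSvb.

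**Figure D3:**
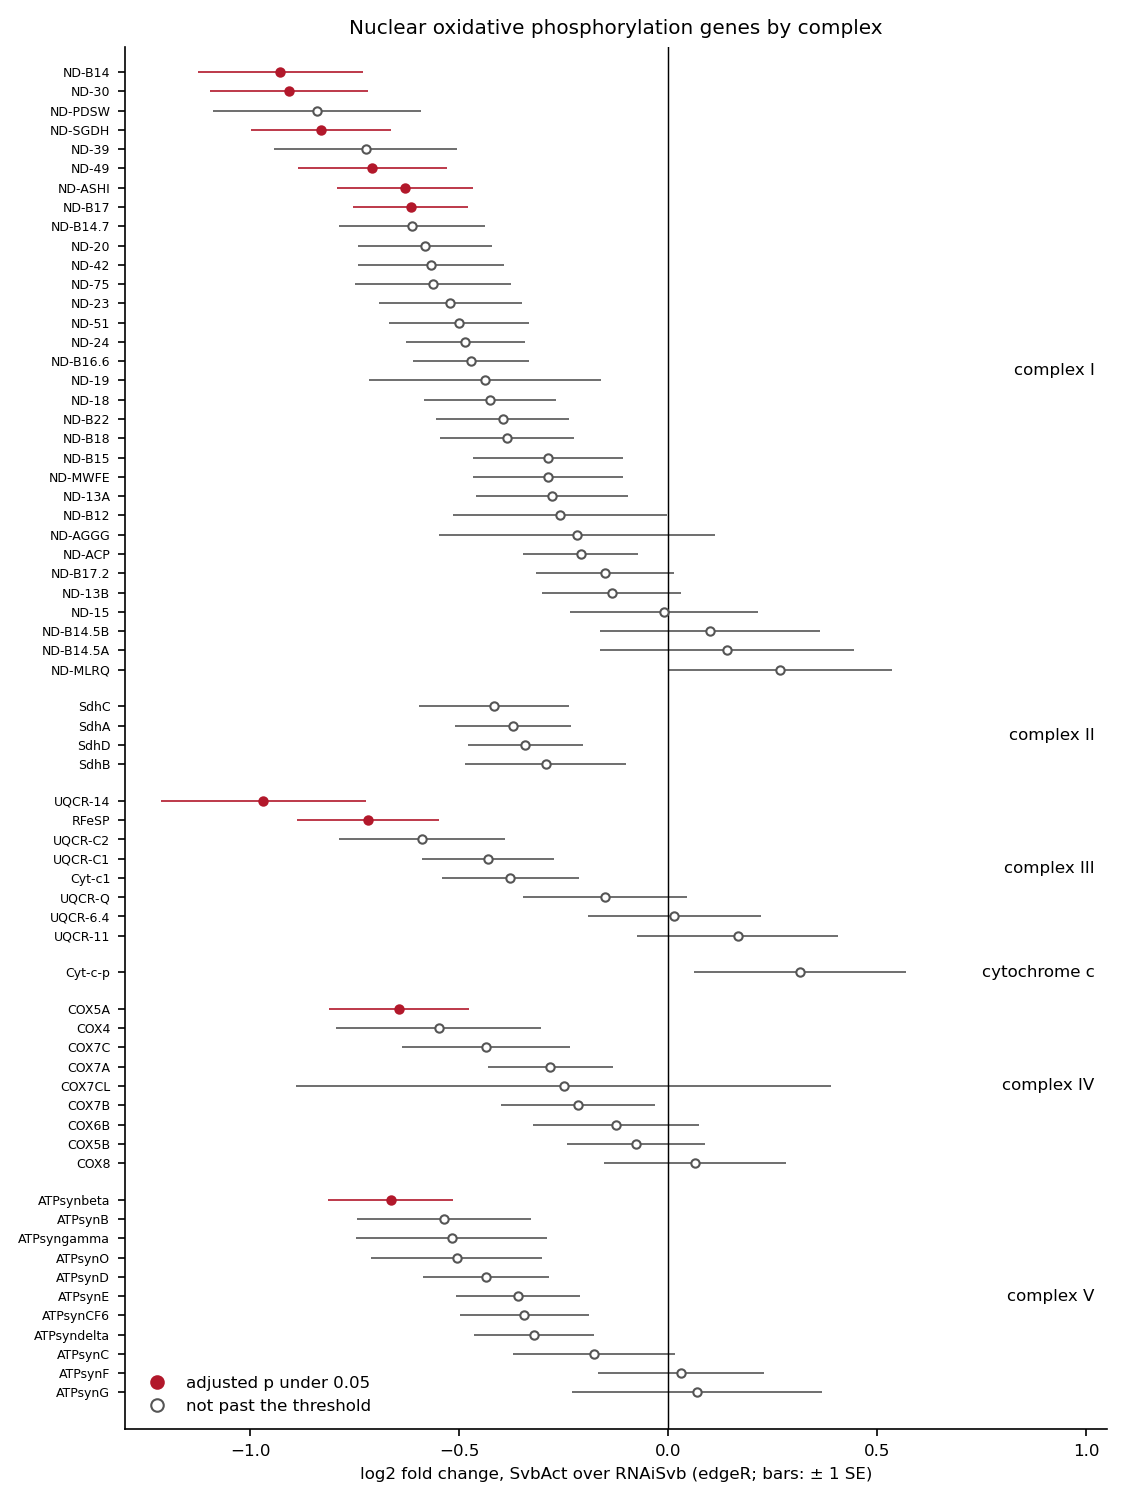
Log2 fold change of each of the 65 genes in SvbAct over the libraries labelled RNAiSvb (edgeR), grouped by respiratory complex, with bars of ± 1 SE. Filled red points are the 10 genes with an adjusted p under 0.05, all below 0, and open points did not pass. 56 points lie below 0 and 9 above.

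All 4 members of complex II were lower in value in SvbAct than in the libraries labelled RNAiSvb, within a narrow range of log2 fold changes from -0.42 (SdhC) to -0.29 (SdhB), and none passed. SdhA had 348, 354 and 331 CPM in SvbAct, against 449, 468 and 420 CPM in the libraries labelled RNAiSvb and 439 and 389 CPM in Ctrl. The SvbAct libraries lay below all 5 others, which overlapped (log2 fold change -0.37, SE 0.14, edgeR adjusted p 0.137). SdhD, a membrane anchor, also showed no overlap between SvbAct and the libraries labelled RNAiSvb (-0.34, SE 0.14, edgeR adjusted p 0.167), whereas SdhB and the anchor SdhC overlapped.

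In complex III, RFeSP and UQCR-14 passed. RFeSP, the Rieske iron-sulfur protein (chromosome 2L, 1612429 to 1614160), had 146, 144 and 134 CPM in SvbAct, against 221, 266 and 208 CPM in the libraries labelled RNAiSvb and 201 and 142 CPM in Ctrl. SvbAct lay wholly below the libraries labelled RNAiSvb and overlapped with Ctrl (log2 fold change -0.72, SE 0.17, edgeR adjusted p 0.0348). UQCR-14, a small subunit that binds ubiquinone (chromosome X, 16286288 to 16286988), had 78.6, 47.9 and 77.2 CPM in SvbAct, against 124, 177 and 97.7 CPM in the libraries labelled RNAiSvb, and 94.3 and 101 CPM in Ctrl. Its log2 fold change of -0.97 (edgeR adjusted p 0.0449, SE 0.25) was the most negative of the 65. All 523 bases of its exons are also covered by CG32576 on the other strand, and strand handling was not stated, so this value is uncertain.

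The other redox subunit of complex III, Cyt-c1, and the core proteins UQCR-C1 and UQCR-C2 had log2 fold changes of -0.38, -0.43 and -0.59, with no overlap between SvbAct and the libraries labelled RNAiSvb, and did not pass (edgeR adjusted p 0.195, 0.132 and 0.104). The remaining small subunits overlapped and lay near 0, at -0.15 for UQCR-Q (SE 0.20), 0.01 for UQCR-6.4 (SE 0.21) and 0.17 for UQCR-11 (SE 0.24). Cyt-c-p had the highest value of all members, with 331, 451 and 261 CPM in SvbAct, against 377, 261 and 200 CPM in the libraries labelled RNAiSvb. These overlapped widely (log2 fold change 0.31, SE 0.25, edgeR adjusted p 0.486).

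In complex IV only COX5A, a subunit on the matrix side of the enzyme (chromosome 3R, 11819359 to 11820299), passed. It had 274, 208 and 266 CPM in SvbAct, against 389, 436 and 344 CPM in the libraries labelled RNAiSvb and 347 and 294 CPM in Ctrl. SvbAct lay below all other libraries, and the edgeR adjusted p of 0.0499 was at the threshold (log2 fold change -0.64, SE 0.17). Of the 9 complex IV members chosen by symbol, COX7A was the only other one without overlap between SvbAct and the libraries labelled RNAiSvb (-0.28, SE 0.15, edgeR adjusted p 0.28). COX4 had 198, 273 and 185 CPM in SvbAct, against 276, 448 and 237 CPM in the libraries labelled RNAiSvb, which overlapped (log2 fold change -0.55, SE 0.24, edgeR adjusted p 0.206). The remaining subunits ranged from -0.44 (COX7C) to 0.06 (COX8).

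In complex V ATPsynbeta passed (chromosome 4, 1031484 to 1034917). It had 1189, 1287 and 1319 CPM in SvbAct, against 1971, 2068 and 1972 CPM in the libraries labelled RNAiSvb, and 1673 and 1601 CPM in Ctrl. The 3 groups were all apart, with SvbAct lowest and the libraries labelled RNAiSvb highest (log2 fold change -0.66, SE 0.15, edgeR adjusted p 0.0289). As fold changes over Ctrl its values did not pass, at -0.37 in SvbAct (edgeR adjusted p 0.28) and 0.29 in the libraries labelled RNAiSvb (edgeR adjusted p 0.488).

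Other parts of the ATP synthase had smaller values and did not pass. The central stalk subunits ATPsyngamma and ATPsyndelta had log2 fold changes of -0.52 and -0.32. The 4 peripheral stalk subunits ATPsynB, ATPsynD, ATPsynCF6 and ATPsynO, which hold the head in place, ranged from -0.54 to -0.34. For 3 of them SvbAct lay wholly below the libraries labelled RNAiSvb, beside 14.9% of all genes tested and 52.3% of the 65 members. ATPsynC, the most abundant member, had 1494, 1954 and 1441 CPM in SvbAct, against 2212, 1571 and 1747 CPM in the libraries labelled RNAiSvb and 1867 and 1739 CPM in Ctrl. Its groups overlapped (log2 fold change -0.18, SE 0.19). The membrane subunits ATPsynF and ATPsynG lay at 0.03 and 0.07, and ATPsynE at -0.36.

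**Figure D4:**
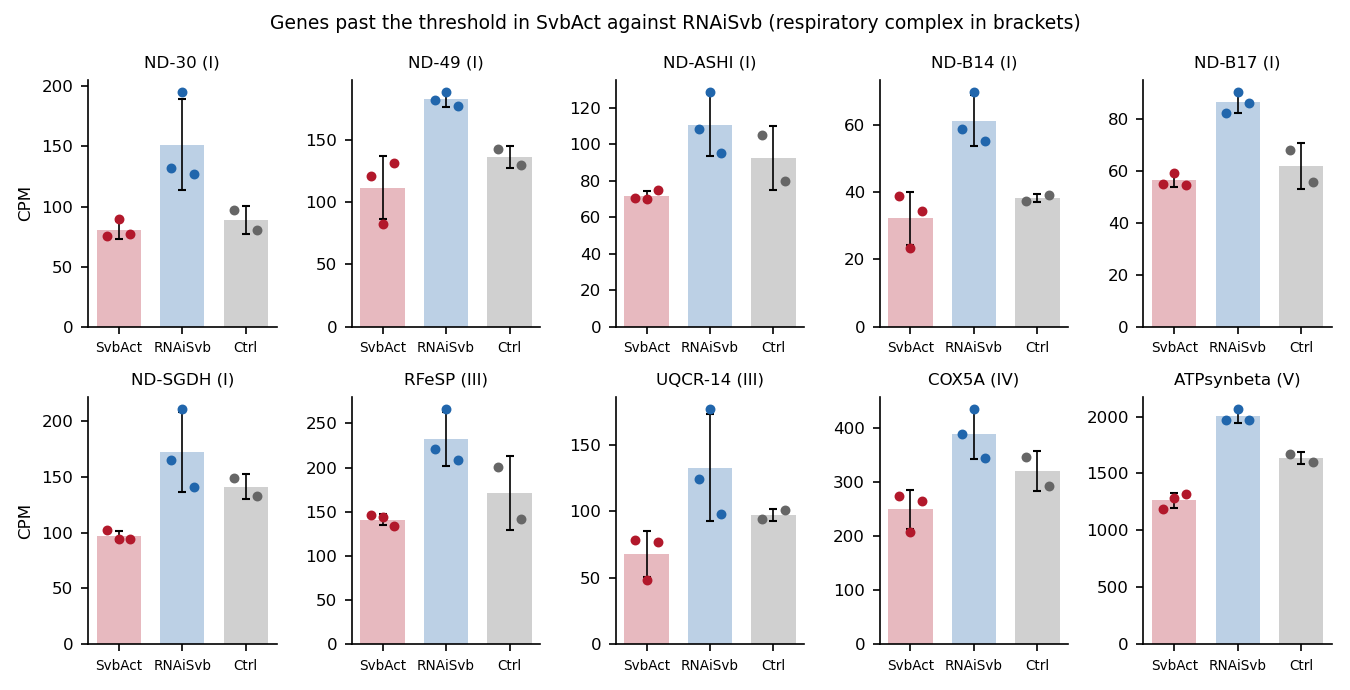
CPM per library of the 10 genes that fell in SvbAct relative to the libraries labelled RNAiSvb, with SvbAct left, RNAiSvb in the middle and Ctrl right in each panel. Points are libraries, bars are means and error bars are ± SD (n = 3, 3 and 2); all SvbAct points lie below all RNAiSvb points in each panel, and for ATPsynbeta, at 1265, 2003 and 1637 CPM, all 3 groups are apart.

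Calls on single members differed in how they stood up to leaving out 1 library at a time. ND-B14 was lost only without library 2 labelled RNAiSvb (edgeR adjusted p 0.0785). ND-SGDH was lost without SvbAct library 2 (0.0598) and SvbAct library 3 (0.051), and ND-30 without SvbAct library 1 (0.0673), SvbAct library 3 (0.0568) and library 2 labelled RNAiSvb (0.0507), all as edgeR adjusted p. ND-B17 was called in 3 of the 8 fits, which were those without library 1 labelled RNAiSvb or either Ctrl library. RFeSP was called in 2, those without either Ctrl library, with an edgeR adjusted p of up to 0.111 in the others.

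For the remaining called members most left-out libraries ended the call. ND-49 was called in 1 of 8 fits, without SvbAct library 3, and had an edgeR adjusted p of up to 0.115 in the others. UQCR-14 was called only without library 3 labelled RNAiSvb (up to 0.142 otherwise), and ATPsynbeta only without library 1 labelled RNAiSvb (up to 0.101 otherwise). ND-ASHI (edgeR adjusted p 0.0522 to 0.145) and COX5A (0.0626 to 0.143) were called in 0 of the 8. Over all 17 other fits the log2 fold changes of the 10 members stayed below 0, the closest to 0 being -0.44 for COX5A.

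Summed over the 65 members, the nuclear genes took 1.12%, 1.17% and 1.11% of the counts in SvbAct, against 1.52%, 1.53% and 1.49% in the libraries labelled RNAiSvb and 1.33% and 1.14% in Ctrl. SvbAct lay below the libraries labelled RNAiSvb with no overlap and varied little (SD 0.0294 percentage points, n = 3), while the Ctrl libraries were further from each other than either set of 3. For complex I the shares were 0.264%, 0.273% and 0.267% in SvbAct, 0.358%, 0.403% and 0.372% in the libraries labelled RNAiSvb and 0.305% and 0.254% in Ctrl. For complex V they were 0.456%, 0.498% and 0.462% in SvbAct, 0.654%, 0.605% and 0.636% in the libraries labelled RNAiSvb and 0.562% and 0.490% in Ctrl. In both complexes Ctrl library 1 lay above SvbAct and Ctrl library 2 lay within or below it.

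The 13 protein-coding genes of mitochondrial DNA encode the other subunits of the same complexes, and their values ran the other way without passing the test. They took 4.27%, 6.76% and 3.07% of the counts in SvbAct, against 3.50%, 1.53% and 2.13% in the libraries labelled RNAiSvb and 2.09% and 3.65% in Ctrl. The spread within groups was wide, and all 3 groups overlapped. All 13 had a log2 fold change above 0 in SvbAct over the libraries labelled RNAiSvb, from 0.80 (mt:CoIII) to 2.45 (mt:ND3). Of the 13, 10 (76.9%) had an edgeR unadjusted p under 0.05, beside 12.1% of all genes that were higher at that level. EdgeR called 0 of them after adjustment. These genes are transcribed together from mitochondrial DNA and share their libraries, so they are not independent of each other. mt:CoI, the catalytic subunit of complex IV and the most abundant of them, had 16688, 23587 and 13180 CPM in SvbAct, against 14346, 6486 and 8486 CPM in the libraries labelled RNAiSvb and 8542 and 15202 CPM in Ctrl (log2 fold change 0.87, SE 0.35, edgeR adjusted p 0.164).

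Set against each other, mitochondrially encoded counts were 3.80, 5.78 and 2.76 times the nuclear members' counts in SvbAct, 2.31, 0.996 and 1.43 times in the libraries labelled RNAiSvb, and 1.58 and 3.20 times in Ctrl. SvbAct library 2 was highest and library 2 labelled RNAiSvb was lowest, and SvbAct lay above the libraries labelled RNAiSvb without overlap. The Ctrl libraries overlapped with both. For complex I the ratio was 2.15, 4.47 and 1.32 in SvbAct, 1.44, 0.610 and 0.772 in the libraries labelled RNAiSvb and 0.995 and 2.18 in Ctrl, which overlapped. With the mitochondrially encoded genes left out of the library sizes, 8 nuclear members were called in SvbAct over the libraries labelled RNAiSvb, all lower, beside 6.31% of all genes, and the median was -0.37.

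**Figure D5:**
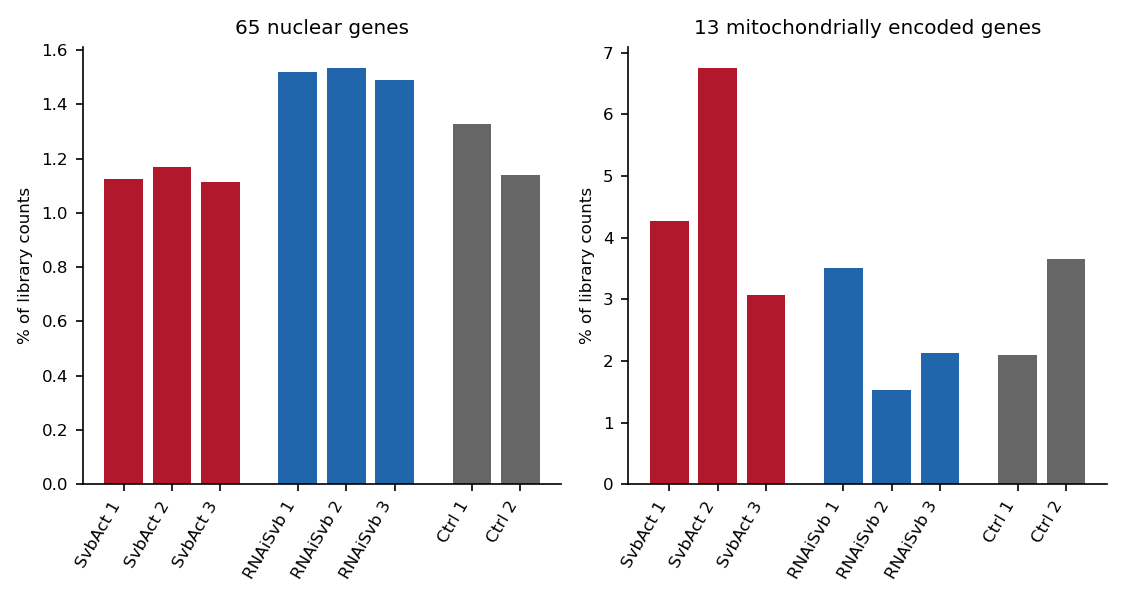
Share of each library's counts (%) taken by the 65 nuclear genes (left panel) and by the 13 mitochondrially encoded genes (right panel), 1 bar per library, for SvbAct, the libraries labelled RNAiSvb and Ctrl. In the left panel the SvbAct bars lie between 1.11% and 1.17% and the RNAiSvb bars between 1.49% and 1.53%; in the right panel the groups overlap and SvbAct library 2 is highest at 6.76%.

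Respiratory subunits with names outside the rule were also read. They come from the same libraries, and levy, sun, blw and cype were named after their values were seen. They are thus no independent check on the rule. Of the 5 in the table (cype, levy, ox, blw and sun), edgeR called 0 in each comparison. In SvbAct over the libraries labelled RNAiSvb 2 (40.0%) had an unadjusted p under 0.05, as lower, beside 11.6% of all genes. blw, the alpha subunit of the ATP synthase head, had 1403, 1890 and 1486 CPM in SvbAct, against 1995, 2383 and 1923 CPM in the libraries labelled RNAiSvb and 1968 and 1481 CPM in Ctrl. Its SvbAct values lay wholly below the libraries labelled RNAiSvb and overlapped with Ctrl (log2 fold change -0.40, SE 0.19, edgeR adjusted p 0.242). levy (-0.54, edgeR adjusted p 0.0813), a subunit of complex IV, and sun (-0.54, edgeR adjusted p 0.0791), the epsilon subunit of the ATP synthase, had values like those of the members. ox lay at -0.20 (SE 0.19, edgeR adjusted p 0.563) and cype at 0.09, both with overlap between the groups.

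Genes around the respiratory chain were read from lists. The shares of all genes called, against which their counts are to be read, were 3.44% in SvbAct over Ctrl, 1.36% in the libraries labelled RNAiSvb over Ctrl and 6.26% in SvbAct over the libraries labelled RNAiSvb. Of 10 assembly factors tested, 1 (10.0%) was called in SvbAct over the libraries labelled RNAiSvb and 0 in the other comparisons. This was Coa7, an assembly factor named for complex IV, with 19.9, 18.9 and 19.4 CPM in SvbAct, against 32.4, 41.2 and 33.6 CPM in the libraries labelled RNAiSvb, and 24.0 and 23.1 CPM in Ctrl. SvbAct was lowest and the libraries labelled RNAiSvb highest, without overlap (log2 fold change -0.88, SE 0.17, edgeR adjusted p 0.0138), and the call held without each of the 8 libraries. The list's median was -0.49, with 9 of 10 genes below 0.

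Of 13 genes of the tricarboxylic acid cycle and pyruvate dehydrogenase, 1 (7.69%) was called, in SvbAct over the libraries labelled RNAiSvb. kdn, the citrate synthase, fell with a log2 fold change of -0.57 (edgeR adjusted p 0.0499, SE 0.15), with 698, 633 and 626 CPM in SvbAct and 1019, 1019 and 872 CPM in the libraries labelled RNAiSvb. The groups were apart, and the call was lost when any of the 8 libraries was left out (edgeR adjusted p 0.0659 to 0.127). The list's median in this comparison was -0.09, with 12 of 13 genes below 0, beside a median of -0.02 for all genes, of which 51.5% lay below 0. The aconitase mAcon1 (-0.53, edgeR adjusted p 0.0887) and the malate dehydrogenase Mdh2 (-0.55, edgeR adjusted p 0.152) also lay wholly lower without passing. Of 11 regulators of mitochondrial biogenesis, among them srl, the fly counterpart of the PGC-1 coactivators, ERR and TFAM, 0 were called in any comparison. In SvbAct over the libraries labelled RNAiSvb the list's median was -0.35, with 9 of 11 genes below 0 and 5 (45.5%) at an unadjusted p under 0.05, all lower, beside 11.6% of all genes. The lowest adjusted p was that of bsf, a mitochondrial RNA-binding protein (log2 fold change -0.64, edgeR adjusted p 0.0541). ERR, a nuclear receptor that regulates metabolic genes, stood at -0.65 (edgeR adjusted p 0.0751), PolG1, the mitochondrial DNA polymerase, at -0.76 (0.0968) and the mitochondrial protease Lon at -0.54 (0.0955), each without overlap. In SvbAct over Ctrl 1 of the 11 (9.1%) had an edgeR unadjusted p under 0.05, as lower, beside 7.81% of all genes that were lower. In the libraries labelled RNAiSvb over Ctrl 3 (27.3%) had, all as higher, beside 6.58% of all genes that were higher. srl had 65.8, 61.4 and 83.6 CPM in SvbAct, against 100, 94.5 and 73.9 CPM in the libraries labelled RNAiSvb and 68.1 and 58.2 CPM in Ctrl, which overlapped (log2 fold change -0.35 in SvbAct over the libraries labelled RNAiSvb, SE 0.17, edgeR adjusted p 0.255).

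Of 9 mitochondrial carriers and channels, 1 was called in SvbAct over Ctrl, 1 in the libraries labelled RNAiSvb over Ctrl (11.1% each) and 2 in SvbAct over the libraries labelled RNAiSvb (22.2%). Mpc1, a subunit of the carrier that brings pyruvate into mitochondria, had 52.9, 43.6 and 56.2 CPM in SvbAct, 62.4, 41.6 and 49.5 CPM in the libraries labelled RNAiSvb, and 95.5 and 99.7 CPM in Ctrl. It fell relative to Ctrl in SvbAct (log2 fold change -0.94, SE 0.19, edgeR adjusted p 0.027) and in the libraries labelled RNAiSvb (-0.93, SE 0.19, edgeR adjusted p 0.0473). These comparisons share the Ctrl libraries, and SvbAct overlapped with the libraries labelled RNAiSvb. The call in SvbAct was lost without SvbAct libraries 1 and 2 and without either Ctrl library (edgeR adjusted p 0.0693 to 0.173), and that in the libraries labelled RNAiSvb without SvbAct libraries 1 and 3, libraries 2 and 3 labelled RNAiSvb and either Ctrl library (edgeR adjusted p 0.0564 to 0.343). Ant2, an ADP/ATP carrier, had 34.7, 28.1 and 35.2 CPM in SvbAct, against 53.5, 65.8 and 59.5 CPM in the libraries labelled RNAiSvb, without overlap (log2 fold change -0.87, SE 0.18, edgeR adjusted p 0.0211). aralar1, an aspartate/glutamate carrier, rose in the same comparison, with 102, 106 and 129 CPM in SvbAct and 74.4, 64.1 and 73.1 CPM in the libraries labelled RNAiSvb (log2 fold change 0.67, SE 0.15, edgeR adjusted p 0.0261). The call on Ant2 was lost without SvbAct library 2 and libraries 2 and 3 labelled RNAiSvb (edgeR adjusted p 0.054 to 0.0728), and that on aralar1 without SvbAct library 3 and libraries 2 and 3 labelled RNAiSvb (edgeR adjusted p 0.0607 to 0.0863).

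Of 6 genes for other routes of electrons to ubiquinone, 1 (16.7%) was called in SvbAct over Ctrl and 0 in the other comparisons. Gpo1, the mitochondrial glycerol-3-phosphate dehydrogenase, had 185, 235 and 246 CPM in SvbAct, against 167, 139 and 147 CPM in the libraries labelled RNAiSvb and 129 and 111 CPM in Ctrl. It rose in SvbAct relative to Ctrl (log2 fold change 0.88, SE 0.18, edgeR adjusted p 0.0273) and did not pass in SvbAct over the libraries labelled RNAiSvb (0.56, SE 0.16, edgeR adjusted p 0.0669). The call over Ctrl was lost without SvbAct libraries 2 and 3 and without either Ctrl library (edgeR adjusted p 0.064 to 0.236).

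Markers of other cell types were read beside these results. The 3 stem cell and progenitor markers in the table (klu, Sox21a and E(spl)mbeta-HLH, of 5 listed) summed to between 0.0123% and 0.0167% of the counts in SvbAct, against 0.00739% to 0.00924% in the libraries labelled RNAiSvb and 0.00732% and 0.00790% in Ctrl, so SvbAct was above both without overlap. Sox21a rose in SvbAct over the libraries labelled RNAiSvb (log2 fold change 3.25, SE 0.53, edgeR adjusted p 0.00703), as did E(spl)mbeta-HLH (2.28, SE 0.32, edgeR adjusted p 0.0028). The remaining stem cell and progenitor marker, klu, had a log2 fold change of 0.37 and did not pass. The part of these cells in the members' differences was not tested. The 8 visceral muscle markers, a tissue rich in mitochondria, summed to 0.0185% to 0.0682% in SvbAct, 0.0184% to 0.130% in the libraries labelled RNAiSvb and 0.0249% and 0.0480% in Ctrl, with overlap. The 6 enteroendocrine markers summed to 0.0272% to 0.0324% in SvbAct, 0.0235% to 0.0349% in the libraries labelled RNAiSvb and 0.0261% and 0.0288% in Ctrl. Of the enteroendocrine markers Dh31 was called, lower in the libraries labelled RNAiSvb than in Ctrl (-2.14, SE 0.30, edgeR adjusted p 0.00629) and higher in SvbAct than in the libraries labelled RNAiSvb (2.37, SE 0.28, edgeR adjusted p 0.00136). Among the enterocyte markers nub rose in SvbAct over Ctrl (1.21, SE 0.20, edgeR adjusted p 0.0107) and lambdaTry fell (-0.83, SE 0.20, edgeR adjusted p 0.0482), with calls that were lost without either Ctrl library. Without Ctrl libraries 1 and 2 the edgeR adjusted p was 0.111 and 0.136 for nub and 0.218 and 0.265 for lambdaTry, and lambdaTry was called in 1 of 8 such fits. The trachea marker in the table, trh, was at 0 in both Ctrl libraries. The fat body and the testis or germline markers each took at most 0.000522% of any library.

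Libraries differed within groups in how they carried the members. Deviations were taken as log2 differences from the mean of the other libraries of the same group. By this measure SvbAct library 2 had the widest scatter over the 65 members (SD 0.45). It held the highest value of its group for 45 of them and the lowest for 13. Its extremes, against the mean of the other SvbAct libraries, were ND-B14.5A at 1.20 and ND-AGGG at -1.17. Among the libraries labelled RNAiSvb, library 2 had the widest scatter (SD 0.36), with ND-B12 at 0.81 and COX8 at -0.85. Ctrl library 1 lay above Ctrl library 2 for 48 members, and its deviations followed exon length across members (Pearson r = 0.49, n = 65 genes of the same 2 libraries). Without SvbAct library 2 and library 2 labelled RNAiSvb together, 2 members were called in SvbAct over the libraries labelled RNAiSvb, beside 2.26% of all genes, and the median was -0.42, with 62 members below 0 and 3 above.

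Features that the choice by symbol did not use were compared across the members. The log2 fold change in SvbAct over the libraries labelled RNAiSvb had a Pearson r of -0.27 with log2 exon length and of -0.03 with log2 CPM per kb over the 65 genes, which come from the same libraries. Both members on chromosome 4, ND-49 and ATPsynbeta, were called, as were 2 of 13 on 2L, 1 of 12 on 2R, 2 of 14 on 3L, 1 of 13 on 3R and 2 of 11 on X. Of all genes tested, in either direction, 5.85% were called on 2L, 6.53% on 2R, 7.31% on 3L, 6.07% on 3R and 5.58% on X. The members on 2R and 3R lay near that share. With only 1 or 2 called members on each chromosome, all lower, no chromosome can be set apart from the others. Of the 70 genes tested on chromosome 4, 5 (7.14%) were called in either direction and the median log2 fold change was 0.15. Exons of 33 members overlap another annotated gene, among them those of UQCR-14, ND-B14, ND-SGDH, ND-ASHI, RFeSP, COX5A and ATPsynbeta, so their counts are uncertain. For the 32 members with no overlap the median was -0.42, with 27 below 0, and 3 were called (9.38%), namely ND-30, ND-49 and ND-B17, beside 6.26% of all genes in both directions and 2.21% as lower.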

How the data were processed

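The authors deposited a table of whole-number counts per FlyBase gene for the 8 libraries. Per the submitters' processing notes, the tools were FastQC 0.11.5, STAR 2.5.2b, HTSeq 0.6.0 and edgeR with the dm6 build, and roles and strand settings are not given in the sources used here. Single reads were taken from Ovation SoLo libraries, per the labels. The deposited fold changes and p-values of the authors were not used.

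Groups and replicate numbers came from the titles. Counts were tested in R 4.3.3 with edgeR 4.0.16 (limma 3.58.1), using filterByExpr (8775 genes kept, 402 left out), TMM factors, and 1 quasi-likelihood fit over all 8 libraries with a mean per group. Its 5 residual degrees of freedom and common biological coefficient of variation of 0.282 limit small differences. P-values were adjusted by Benjamini-Hochberg per comparison, with a threshold of 0.05. Each SE was derived from the test, as |log2 fold change| over the root of its F statistic. CPM used TMM factors. The fit was tested on simulated data. Exon lengths, overlaps and coordinates (1-based) came from the Ensembl 115 annotation of BDGP6.54, whose coordinates are those of dm6.

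The members and gene lists were chosen with earlier results of these data known. Members named were those called, the 5 highest and 5 lowest fold changes per comparison, the 2 highest and 2 lowest levels per complex, and duplicate genes. Beyond the rule, core and other subunits were named by role, and near misses, levy, sun, blw, cype, srl, bsf, ERR, PolG1, Lon, mAcon1, Mdh2 and mt:CoI were chosen after their values were seen. Alternatives were DESeq2 1.42.0, other scalings and filters, other thresholds, fits of the groups compared only, a replicate block and each library left out.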

Additional observations from a re-analysis of the deposited data

How the results depend on the processing

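In SvbAct over the libraries labelled RNAiSvb, 10 members were called, beside 6.26% of all genes. The count was 17 with the DESeq2 Wald test (beside 12.0%) and 5 in a fit of these groups only (beside 4.59%). It was 18 at an adjusted p under 0.1 (beside 12.3% of all genes) and 0 at an adjusted p under 0.01 (beside 1.82%). In the main fit 37 members have an unadjusted p under 0.05, beside 23.7% of all genes in both directions. With each of the 8 libraries left out in turn the count ran from 1 (without RNAiSvb replicate 2) to 5, beside 2.99% to 5.67% of all genes. It was 2 without the libraries numbered 2 of both groups (beside 2.26%), an alternative chosen after seeing the data. With the replicate number as a block the count was 3, all lower, a smaller share than the 5.05% of all genes called in both directions. The numbers were not taken to pair the libraries, since same-numbered libraries of these groups had correlations of -0.02, 0.08 and 0.12 over all genes. The count stayed between 8 and 10 with DESeq2 size factors, with library totals and with all genes kept. It also did so with a minimum of 10 counts per library (64 members tested) and without the mitochondrially encoded genes. In these settings from 5.93% to 6.31% of all genes were called. Of the called members, ND-B14 passed in 15 of 17 refits, ND-30 and ND-SGDH in 14 each, ND-ASHI in 3 and COX5A in 2. In RNAiSvb over Ctrl, the DESeq2 Wald test called 1 member (beside 4.00% of all genes), where edgeR called 0 (beside 1.36%). In SvbAct over Ctrl each alternative called 0, beside 0.538% to 7.30% of all genes. Median log2 fold changes kept their sign in all alternatives, within -0.29 to -0.06 for SvbAct over Ctrl, 0.17 to 0.34 for RNAiSvb over Ctrl and -0.45 to -0.34 for SvbAct over RNAiSvb. Library totals put the median of all genes at 0.13 in RNAiSvb over Ctrl, beside 0.34 for the members. No named gene reversed a call. The cause of the differences between settings was not tested. Only 2 Ctrl libraries limit both comparisons with Ctrl.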
